A study of Homo sapiens with 4 samples.

Results

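The genes described here carry sphingolipid synthesis from the product of serine palmitoyltransferase to ceramide and on to sphingomyelin. They are KDSR, CERS2, CERS4, CERS5, CERS6, DEGS1, COL4A3BP (the table's name for CERT1), SGMS1, SGMS2 and SAMD8, chosen by name from the pathway. All 10 were found among the 58735 genes of the deposited count table, and all 10 passed the filter on low counts. RNA from Hey-A8 cells, an established ovarian cancer line, was sequenced in 2 groups of 2 libraries. The shSPTLC2 cells carry a hairpin labelled as a knockdown of SPTLC2, and the shCON cells carry a negative control hairpin. Both groups were grown in RPMI-1640 medium with fetal bovine serum. The series' design text calls the knockdown stable, while the treatment protocol speaks of hairpin plasmids against ZDHHC15, delivered transiently and harvested after 36 h. The groups follow the titles here. No label says whether a group is a clone or a pool of cells, or whether the replicates were separate cultures. The p-values therefore measure only the spread between these libraries, which may be technical. In edgeR that spread is estimated partly from other genes, not from each gene's own values alone.

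Sphingolipids are built on a long-chain base. Serine palmitoyltransferase joins serine to palmitoyl-CoA, KDSR reduces the resulting ketone, and the ceramide synthases add a fatty acyl chain whose length depends on which synthase acts. DEGS1 then places the double bond that turns dihydroceramide into ceramide, COL4A3BP carries ceramide from the endoplasmic reticulum to the Golgi, and SGMS1 and SGMS2 convert it there and at the plasma membrane to sphingomyelin. Sphingomyelin is a main lipid of the outer plasma membrane, and ceramide is known as a signal in growth arrest and cell death.

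Total counts ran from 14464784 to 15084966 per library. SPTLC2, the labelled target, had 587 and 662 counts in the shSPTLC2 libraries, against 871 and 884 in the shCON libraries, a log2 fold change of -0.52 ± 0.12 (SE, edgeR adjusted p = 0.0063). That call was lost when shSPTLC2 replicate 1 (adjusted p = 0.134) or replicate 2 (adjusted p = 0.0519) was left out. ZDHHC15 had 0 counts in all 4 libraries, where 3 counts would be 0.195 to 0.206 CPM (counts-per-million, scaled by TMM). Of 9 ovarian epithelial markers, KRT7, KRT8, KRT18 and PAX8 were abundant, whereas CDH1 had 0 counts and MUC16 and EPCAM averaged under 0.2 FPKM (the deposited values, scaled to gene length and library size). Of the 6 tested, 2 were called higher in shSPTLC2, PAX8 (log2 fold change 0.73 ± 0.11, adjusted p = 0.000444 in edgeR) and MSLN (0.61 ± 0.16, adjusted p = 0.016), beside 19.4% of all tested genes called in either direction. With DESeq2, and with a GC-content offset, 1 was called. Of the 4 not called in edgeR, KRT18 (0.32) and KRT7 (0.14) had positive estimates, and KRT8 (-0.07) and WT1 (-0.30) negative ones. The mesenchymal markers VIM, FN1 and CDH2 were also abundant, with means of 858, 83.9 and 27.5 FPKM over the 4 libraries. In edgeR 0 of these 3 were called, beside the same 19.4%. Of 9 markers of other cell types, 7 averaged under 0.1 FPKM. The summed level of those 9 was 17.8 and 21.4 FPKM in shSPTLC2 and 9.71 and 9.34 FPKM in shCON, nearly all of it from the endothelial cadherin gene CDH5 (1.09 ± 0.12, adjusted p = 3.66e-05 in edgeR). PECAM1, the other endothelial marker, went the other way, with 6 and 12 counts in shSPTLC2 against 31 and 27 in shCON (-1.71 ± 0.46, adjusted p = 0.018). PECAM1 was not called with DESeq2 or without shSPTLC2 replicate 1, shSPTLC2 replicate 2 or shCON replicate 1. The leukocyte genes CD3E and MS4A1 had 0 counts. Mitochondrial genes took 10.1 and 8.56% of counts in the shSPTLC2 libraries and 5.46 and 6.39% in the shCON libraries. The part of these differences in the results below was not tested.

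The ceramide synthases are paralogs, as are SGMS1, SGMS2 and SAMD8, so the coding sequences were compared to see whether reads could be shared. The stretches shown hold the longest run of identical aligned bases of each closest pair, in capitals, with 20 bases on either side. They come from GENCODE 29 transcripts on hg38.
CERS5: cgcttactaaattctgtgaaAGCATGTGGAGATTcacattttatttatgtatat
CERS6: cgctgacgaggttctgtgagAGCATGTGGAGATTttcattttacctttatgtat
SGMS1: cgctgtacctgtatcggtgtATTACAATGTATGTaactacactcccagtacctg
SGMS2: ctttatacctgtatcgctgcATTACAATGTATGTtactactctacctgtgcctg
The CERS5 stretch crosses a splice junction between chr12:50142082-50143098 on the minus strand, and the CERS6 stretch crosses another between chr2:168561298-168631013 on the plus strand. The SGMS1 stretch lies in a single coding exon at chr10:50327231-50327284, minus strand, and the SGMS2 stretch in a coding exon at chr4:107899613-107899666, plus strand. CERS5 and CERS6 had 69.3% identity over 1139 aligned coding bases, with a longest shared run of 14 bases anywhere. SGMS1 and SGMS2 had 65.8% identity over 1048 bases, with a longest shared run of 15 bases. Among the other pairs compared the longest was 17 bases, between CERS2 and CERS5. Runs this short set the paralogs apart by sequence in the coding part, though no source used here gives the read length.

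None of the 10 genes passed the test between groups. By edgeR's quasi-likelihood test, adjusted by Benjamini-Hochberg over all tested genes, 0 of the 10 were called, against 2971 of 15313 tested genes (19.4%; 10.4% higher and 9.00% lower in shSPTLC2). At an unadjusted p under 0.05 there were 2 of the 10, CERS5 and SGMS1, against 33.2% of all tested genes, and DESeq2 also called 0 of the 10. With all 4 libraries, limma-voom and 5 other settings called 1 of the 10, CERS5. The estimates ran from a log2 fold change of -0.31 for SGMS1 to 0.40 for CERS5, with a median of 0.08 beside 0.00 (0.0049) for all tested genes. The median size of the log2 fold change, sign left aside, was 0.11 for the 10 genes and 0.27 for all tested genes. The 95% intervals of all 10 lay between folds of 0.663 and 1.62. In RNA from a whole culture, a change in the share of cells that express a gene cannot be told apart from a change per cell.

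**Figure D1:**
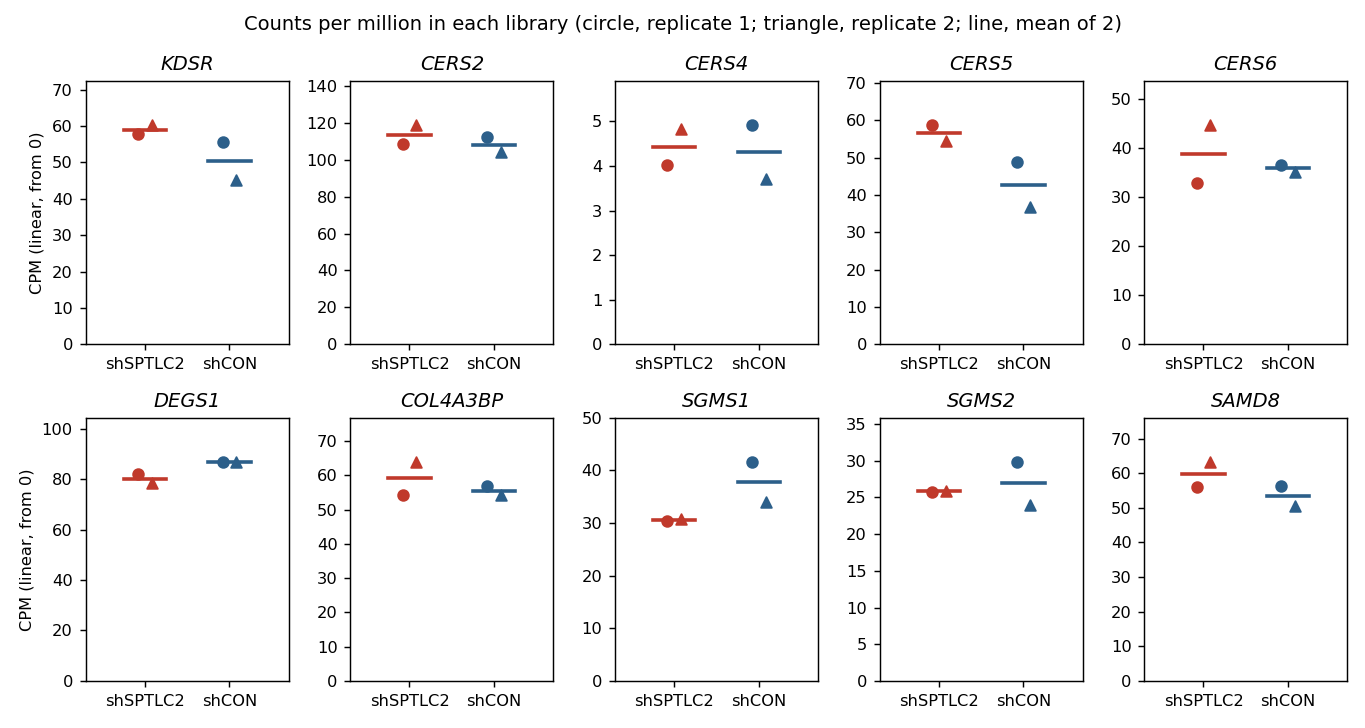
TMM-scaled CPM (linear axis from 0) of each of the 10 genes in the 2 shSPTLC2 and the 2 shCON libraries, with a line at each group's mean. In KDSR and CERS5 both shSPTLC2 points lie above both shCON points, in DEGS1 and SGMS1 both lie below, and in the other 6 panels the groups overlap.

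KDSR (ENSG00000119537, hg38 chromosome 18, 63327726 to 63367510) reduces the ketone that serine palmitoyltransferase makes. It had 57.7 and 60.3 CPM in the shSPTLC2 libraries, against 55.7 and 45.3 CPM in the shCON libraries. The groups did not overlap, but shCON replicate 1 lay close to the shSPTLC2 libraries and shCON replicate 2 far below them. The log2 fold change was 0.23 ± 0.13 (SE, 95% interval -0.04 to 0.49, adjusted p = 0.227). It was 0.37 without shCON replicate 1 (adjusted p = 0.0292) and 0.08 without shCON replicate 2 (adjusted p = 0.736), so the call depended on which control library was used.

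CERS5 (ENSG00000139624, hg38 chromosome 12, 50129306 to 50167533), a synthase that favours long-chain palmitoyl-CoA, came nearest to a call. It had 58.8 and 54.5 CPM in the shSPTLC2 libraries, against 48.8 and 36.7 CPM in the shCON libraries. Both shSPTLC2 values lay above both shCON values, and the gap between the shCON libraries (0.41 on the log2 scale) was as large as the difference between groups. Its log2 fold change was 0.40 ± 0.14 (SE, 95% interval 0.11 to 0.70), a fold of 1.32, with an adjusted p of 0.0511 in edgeR. CERS5 was called under 7 of the 12 other settings, among them limma-voom (adjusted p = 0.0427), and not by DESeq2 (adjusted p = 0.112). Over the 12, the estimate ran from 0.21 without shCON replicate 2 (adjusted p = 0.296) to 0.62 without shCON replicate 1 (adjusted p = 0.000178), and it was positive in all of them.

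CERS6 (ENSG00000172292, hg38 chromosome 2, 168455862 to 168775137), the synthase closest to CERS5 in sequence and in acyl chain preference, varied mostly between the shSPTLC2 libraries. It had 32.8 and 44.7 CPM in shSPTLC2, against 36.6 and 35.1 CPM in shCON. The shCON pair lay between the 2 shSPTLC2 values. The log2 fold change was 0.11 ± 0.15 (SE, adjusted p = 0.626), and its sign turned to -0.13 without shSPTLC2 replicate 2.

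CERS2 (ENSG00000143418, hg38 chromosome 1, 150960583 to 150975004) makes ceramides with very long acyl chains and was the most abundant of the synthases. It had 108.5 and 119.0 CPM in the shSPTLC2 libraries, against 112.3 and 104.1 CPM in the shCON libraries. The groups overlapped, with a log2 fold change of 0.07 ± 0.11 (SE, 95% interval -0.16 to 0.30, adjusted p = 0.68). On the opposite strand SETDB1, a histone methyltransferase gene, shares 948 of the 4644 exonic bases of CERS2, and SETDB1 was called lower (-0.44 ± 0.14, adjusted p = 0.0361). Since no source used here says whether counting used strand, reads from the shared bases cannot be told apart.

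CERS4 (ENSG00000090661, hg38 chromosome 19, 8206736 to 8262421) was the scarcest member, with 59 and 74 counts in shSPTLC2 and 73 and 54 in shCON. At 4.01 and 4.82 CPM in shSPTLC2 and 4.92 and 3.71 CPM in shCON, the shSPTLC2 pair lay inside the range of the shCON pair. Its 95% interval, -0.52 to 0.59 on the log2 scale, was the widest of the 10 and took in 0. CERS3, an epidermal and testis synthase, had a count of 1 in shSPTLC2 replicate 2 and 0 in the other libraries. CERS1, a synthase of brain and muscle, had 0 counts in all 4. All 2517 exonic bases of GDF1, a growth factor gene also listed at 0, lie within the 3753 exonic bases of CERS1, so reads there cannot be assigned to either gene alone.

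Summed over CERS1 to CERS6, CERS2 held 62.2 and 62.4% of FPKM in the shSPTLC2 libraries, against 64.2 and 66.7% in the shCON libraries. CERS5 held 23.2 and 19.7% in shSPTLC2 and 19.2 and 16.2% in shCON. CERS6 held 12.05 and 15.03% in shSPTLC2 and 13.4 and 14.4% in shCON, and CERS4 held 2.63 to 3.22% over all 4 libraries. The CERS2 share differed by -3.15 percentage points (shSPTLC2 minus shCON; 62.3 ± 0.165% against 65.4 ± 1.75%, SD, n = 2 each; exact two-sided permutation p = 0.333, the smallest that 2 against 2 libraries allow), and by -1.91 points without shCON replicate 2. The summed synthase FPKM was 37.1 and 40.7 in shSPTLC2 and 37.7 and 33.4 in shCON, and the groups overlapped.

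DEGS1 (ENSG00000143753, hg38 chromosome 1, 224175756 to 224193441), the desaturase that makes ceramide from dihydroceramide, was the most even of the 10 genes. It had 81.9 and 78.3 CPM in the shSPTLC2 libraries, against 86.9 and 86.7 CPM in the shCON libraries. Both shSPTLC2 values lay below both shCON values, by more than either pair of replicates differed. The log2 fold change was -0.12 ± 0.11 (SE, 95% interval -0.34 to 0.11, adjusted p = 0.484), negative under all 12 other settings and called under 0 of them. DEGS2, the paralog that also hydroxylates, had 2 counts in shSPTLC2 replicate 1 and 0 in the other libraries.

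COL4A3BP (ENSG00000113163, hg38 chromosome 5, 75356345 to 75512138), the ceramide transfer protein, had 54.3 and 64.0 CPM in the shSPTLC2 libraries, against 56.8 and 54.3 CPM in the shCON libraries. The groups overlapped, with a log2 fold change of 0.09 ± 0.12 (SE, adjusted p = 0.636). POLK, a translesion DNA polymerase gene on the opposite strand, was higher in shSPTLC2 (32.8 ± 4.28 against 22.1 ± 1.6 CPM in shCON, SD, n = 2 each, adjusted p = 0.0106 in edgeR) and shares 230 of the 18138 exonic bases of COL4A3BP.

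SGMS1 (ENSG00000198964, hg38 chromosome 10, 50305586 to 50625163), the Golgi sphingomyelin synthase, had the lowest estimate. It had 30.3 and 30.8 CPM in the shSPTLC2 libraries, against 41.7 and 34.0 CPM in the shCON libraries. The shSPTLC2 values were close together and lay below both shCON values. The log2 fold change was -0.31 ± 0.13 (SE, 95% interval -0.59 to -0.02), a fold of 0.807, with an adjusted p of 0.119. It was -0.45 without shCON replicate 2 (adjusted p = 0.0122) and -0.16 without shCON replicate 1 (adjusted p = 0.462), and negative under all 12 other settings. SGMS1-AS1, an antisense gene that shares 207 exonic bases with SGMS1, had 39 and 27 counts in shSPTLC2 and 60 and 42 in shCON.

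SGMS2 (ENSG00000164023, hg38 chromosome 4, 107824563 to 107915047), the synthase found at the Golgi and the plasma membrane, had 25.8 and 25.9 CPM in the shSPTLC2 libraries, against 29.9 and 24.0 CPM in the shCON libraries. The shSPTLC2 pair lay inside the range of the shCON pair, with a log2 fold change of -0.06 ± 0.14 (SE, adjusted p = 0.801). SAMD8 (ENSG00000156671, hg38 chromosome 10, 75099586 to 75182123) encodes the related endoplasmic reticulum enzyme that makes ceramide phosphoethanolamine. It had 55.9 and 63.3 CPM in shSPTLC2, against 56.2 and 50.6 CPM in shCON. The lower shSPTLC2 value was just under the higher shCON value, and the log2 fold change was 0.16 ± 0.12 (SE, adjusted p = 0.382).

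In shCON the balance of the 2 sphingomyelin synthases differed less between replicates than either level did. The SGMS1 to SGMS2 ratio of FPKM was 1.40 and 1.41 in the shSPTLC2 libraries, against 1.66 and 1.68 in the shCON libraries, a difference of -0.25 on the log2 scale (exact two-sided permutation p = 0.333, the smallest possible). Exact 95% binomial intervals, which cover counting error only, were 1.22 to 1.61 and 1.23 to 1.62 in shSPTLC2 and 1.46 to 1.88 and 1.47 to 1.94 in shCON. The intervals of the groups overlap, though each library's ratio lay outside the intervals of the other group. Overlap of intervals from single libraries is not a test of the group difference. The replicates of each group differed by far less than the width of their intervals. The summed FPKM of the pair was 8.00 and 8.11 in shSPTLC2, against 10.4 and 8.36 in shCON (exact two-sided permutation p = 0.333). Its difference of -1.33 FPKM was -0.31 without shCON replicate 1 and -2.36 without shCON replicate 2.

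**Figure D2:**
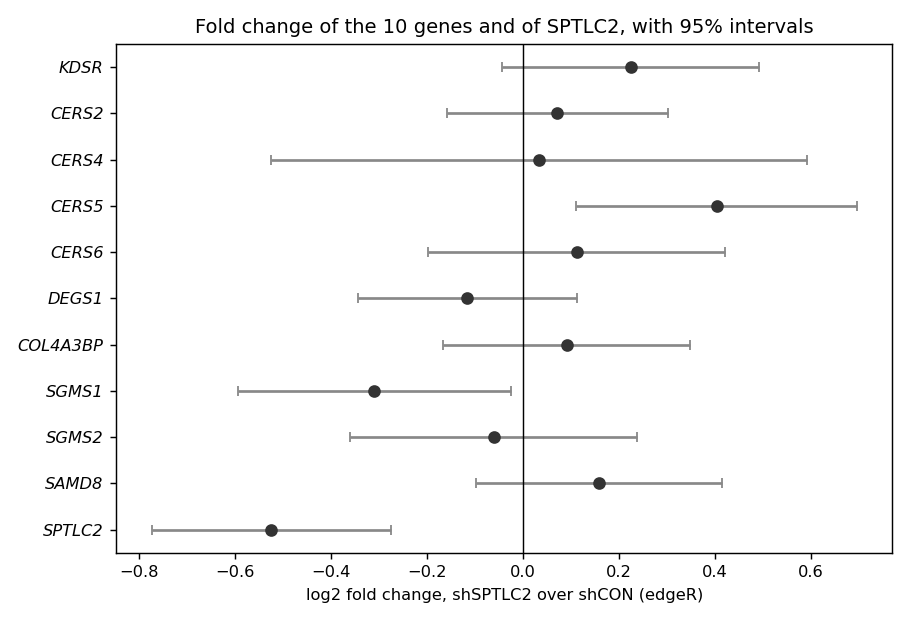
Log2 fold change (shSPTLC2 over shCON, edgeR) of the 10 genes and of SPTLC2, with 95% intervals that are not adjusted for the number of genes. The intervals of CERS5 and SGMS1 leave out 0, on opposite sides, those of the other 8 genes hold it, and SPTLC2 is the lowest at -0.52.

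Levels were compared between genes on the deposited FPKM, which divide by the summed exon length of each gene and so depend on how much of that length the cells use. DEGS1 was highest, with 32.2 and 30.9 FPKM in shSPTLC2 and 34.6 and 34.2 FPKM in shCON, above 93.0% of the 16196 coding genes with a count. CERS2 followed, with 23.1 and 25.4 FPKM in shSPTLC2 and 24.2 and 22.2 FPKM in shCON. On this scale these 2 stood apart from each other and from the rest, since their ranges over the 4 libraries met no neighbour's. In CPM, which do not divide by length, CERS2 (104.1 to 119.0) lay above DEGS1 (78.3 to 86.9). SAMD8, CERS5, KDSR, SGMS1 and CERS6 followed in that order, with means over the 4 libraries of 7.64, 7.31, 5.84, 5.29 and 5.12 FPKM. Neighbours among these 5 overlapped in range, so their order is not settled by these libraries. SGMS2 (3.43 FPKM) and COL4A3BP (3.14 FPKM) overlapped each other and lay below CERS6, and CERS4 was lowest at 1.07 FPKM. The highest mean was 30.8 times the lowest, and the median coding gene with a count had 2.90 FPKM.

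**Figure D3:**
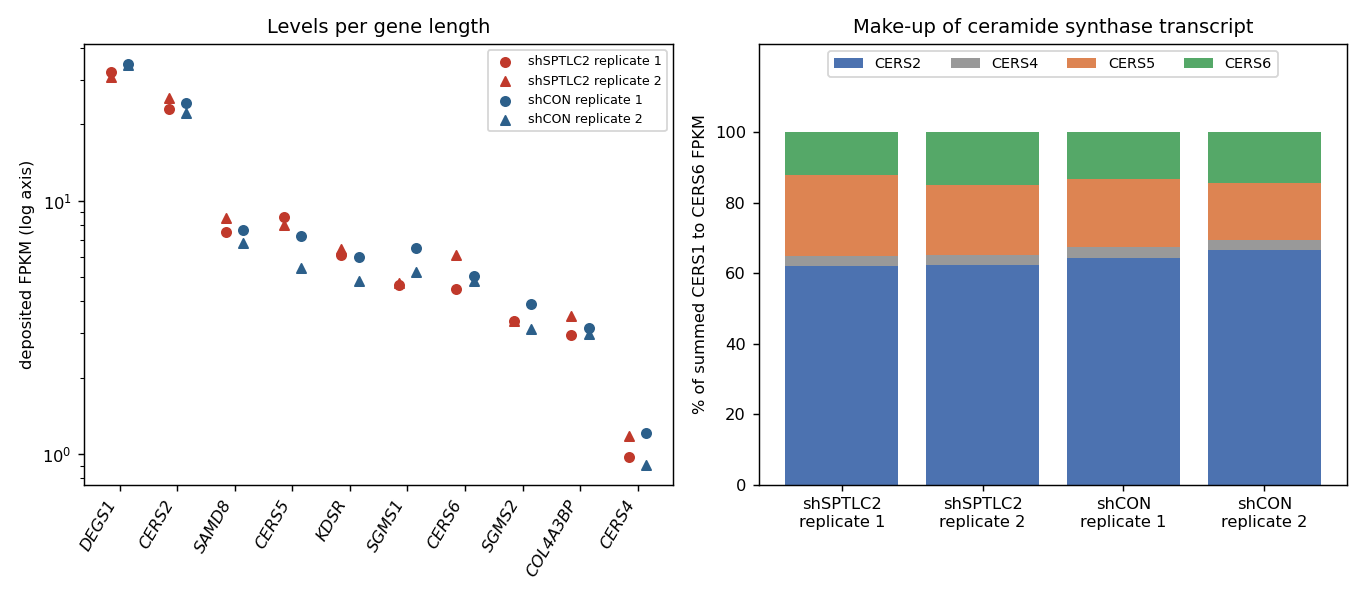
Left, deposited FPKM (log axis) of the 10 genes in each library, ordered by mean, from DEGS1 at 33.0 to CERS4 at 1.07. Right, each library's summed CERS1 to CERS6 FPKM split by synthase in percent, where CERS2 holds 62.2 and 62.4% in shSPTLC2 and 64.2 and 66.7% in shCON.

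Across libraries, the differences between replicates were as large as those between groups. For 4 of the 10 genes the shSPTLC2 and shCON libraries were fully separate (2 higher, KDSR and CERS5, and 2 lower, DEGS1 and SGMS1), against 61.5% of all tested genes. For 8 of the 10, all but DEGS1 and SGMS1, the group difference was smaller than the wider of the 2 replicate gaps, against 51.6% of all tested genes. All 10 were lower in shCON replicate 2 than in shCON replicate 1, from a log2 gap of 0.00 (-0.0038) for DEGS1 to -0.41 for CERS5, against 49.5% of all tested genes. Of the 10, 8 were higher in shSPTLC2 replicate 2 than in replicate 1, against 50.0% of all tested genes. The median gap between the shSPTLC2 libraries was 0.12 for the 10 genes and 0.15 for all tested genes, and between the shCON libraries 0.22 and 0.19.

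Leaving out a library changed which of the 10 genes were called. Without shCON replicate 1, 2 of the 10 were called, KDSR and CERS5, both higher, where 24.8% of all tested genes were called. Without shCON replicate 2, 1 was called, SGMS1, lower, where 20.1% of all tested genes were. The sign of the estimate turned in at least 1 of these fits for CERS4, CERS6, COL4A3BP and SGMS2. Without shSPTLC2 replicate 1 or replicate 2, 0 of the 10 were called, and 3.97% and 6.17% of all tested genes were. CERS5 was the 1 of the 10 called with limma-voom, library totals, no filter on low counts, a GC-content offset, a replicate block, or block and offset together, settings that called 19.4, 19.3, 11.0, 19.1, 21.6 and 20.8% of all tested genes. It was not called with DESeq2's size factors in edgeR (19.4%) or with DESeq2 (14.9%).

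**Figure D4:**
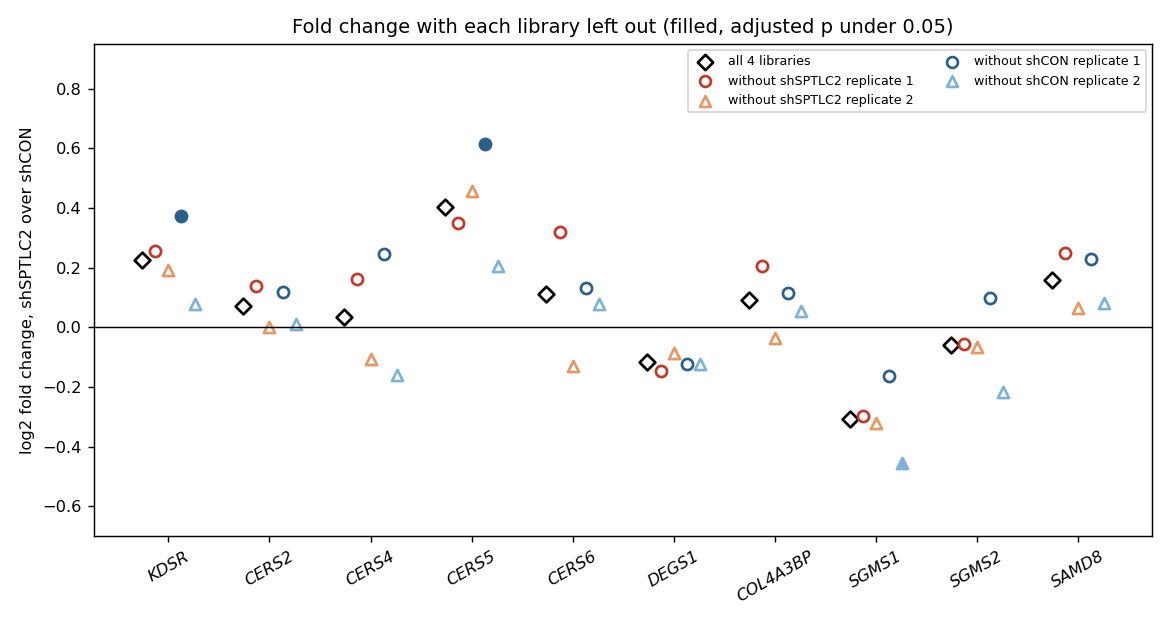
Log2 fold change (shSPTLC2 over shCON) of the 10 genes with all 4 libraries and with each library left out, with filled symbols where the edgeR adjusted p is under 0.05. Filled symbols appear for KDSR and CERS5 without shCON replicate 1 and for SGMS1 without shCON replicate 2.

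Genes of the neighbouring steps were described from lists chosen by function. The serine palmitoyltransferase list, with its small subunits and ORMDL regulators, had 6 of 8 members tested, of which 0 were called higher and 1 lower (SPTLC2), beside 10.4% higher and 9.00% lower over all tested genes, with a median log2 fold change of -0.08. SPTLC1, the partner subunit and the most abundant of the list, had 17.1 and 17.4 FPKM in shSPTLC2 and 17.8 and 17.8 FPKM in shCON. Of 4 sphingomyelin hydrolase genes tested, 0 were called in edgeR (2 at an unadjusted p under 0.05), beside 19.4% called and 33.2% at an unadjusted p under 0.05 over all tested genes. SMPD4, the most abundant of them, had a log2 fold change of 0.27 ± 0.11 (SE, adjusted p = 0.0916).

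The very long acyl chains that CERS2 uses come from the elongation cycle. In this cycle ELOVL enzymes condense, HSD17B12 and TECR reduce and HACD enzymes dehydrate. Of 13 elongation genes tested, 3 were called higher and 0 lower in shSPTLC2, with a median of 0.14. The 3 of 13 are near the 19.4% called over all tested genes (10.4% higher). TECR, the reductase that ends the cycle, rose to 138.7 and 124.1 CPM in shSPTLC2, against 98.2 and 66.7 CPM in shCON (0.67 ± 0.16, adjusted p = 0.0132). Leaving out shCON replicate 2 brought the TECR estimate down to 0.41, and leaving out shCON replicate 1 gave 0.97, with a call in both fits. HACD4 (0.52 ± 0.14, adjusted p = 0.0182) and ELOVL2 (0.50 ± 0.16, adjusted p = 0.0384), which extends polyunsaturated chains, were also called higher. DESeq2 called neither HACD4 (adjusted p = 0.0727) nor ELOVL2 (adjusted p = 0.129), and ELOVL2 was not called without shCON replicate 2 (0.31, adjusted p = 0.2). ELOVL1, which makes the very long saturated chains that CERS2 uses, was the most abundant, at 80.4 to 88.7 FPKM, and had an estimate of -0.08 ± 0.10 (adjusted p = 0.604).

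COL4A3BP is tethered to the endoplasmic reticulum by VAPA and VAPB and can be switched off by phosphorylation. Of 12 genes of its docking and control, 2 were called higher and 0 lower, with a median of -0.09, near the 19.4% called over all tested genes. CSNK1G2, a casein kinase that phosphorylates the transfer protein, had 161.4 and 154.2 CPM in shSPTLC2, against 126.4 and 115.3 CPM in shCON (0.39 ± 0.11, adjusted p = 0.0189). PRKD2, a protein kinase D, rose by 0.48 ± 0.13 (adjusted p = 0.021), and was not called without shCON replicate 2 (0.34, adjusted p = 0.0657). After a correction for transcript GC content neither was called, CSNK1G2 having 0.11 (adjusted p = 0.451) and PRKD2 0.30 (adjusted p = 0.132).

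Of 7 tested genes of other enzymes that consume ceramide, 1 was called higher and 0 lower, with a median of 0.15, no more than the 19.4% called over all tested genes. UGCG, the glucosylceramide synthase, was also the most abundant of them. It had 572.3 and 652.4 CPM in shSPTLC2, against 483.9 and 490.3 CPM in shCON (0.33 ± 0.11, adjusted p = 0.0466). UGCG was not called with DESeq2's size factors in edgeR (adjusted p = 0.0523) or with the replicate block (adjusted p = 0.0558). Without shSPTLC2 replicate 1 or without replicate 2, 0 genes of these 5 lists were called, beside 3.97% and 6.17% of all tested genes. Without shCON replicate 1 the lists held 8 calls higher and 3 lower, beside 24.8% of all tested genes called, and without shCON replicate 2 they held 5 and 2, beside 20.1%. SPTLC2 was among the lower in both fits.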

How the data were processed

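The series holds 2 shSPTLC2 and 2 shCON RNA-seq libraries of total RNA, made, per the labels' protocols, with a NEBNext Ultra RNA kit. The deposited count table gives raw read counts per gene for 58735 genes. The FPKM table, deposited by the authors, equals each count over gene length and a library factor, checked within a relative tolerance of 1e-09. HISAT2, StringTie, SAMtools and hg38 are named per the submitters' processing notes, with no counting program or strand setting given in the sources used here. All 58735 gene IDs are in GENCODE 29, 58724 with the same start and end.

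Counts were tested in R 4.3.3 with edgeR 4.0.16: filterByExpr (minimum count 10, total 15), TMM, a robust quasi-likelihood fit without covariates, a two-sided F test and Benjamini-Hochberg adjustment over 15313 genes, calling at an adjusted p under 0.05. The SE was taken as the size of the log2 fold change divided by the root of F, and 95% intervals use the fit's t quantile. DESeq2 1.42.0 and limma 3.58.1 were alternatives. Exact permutation tests used SciPy 1.17.1, and Biopython 1.88 aligned coding sequences. The fit was first checked on simulated counts with known changes, none of which enter the results.

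At 14464784 to 15084966 counts a library, 3 counts are 0.195 to 0.206 CPM, and intervals from counts cover counting error only. Between replicates, 28.7% (shSPTLC2) and 37.4% (shCON) of genes differed by a chi-square test at p under 0.05, more than sampling noise gives, so no pair looked like a library deposited again. This does not show that the replicates were separate cultures. The members and lists were chosen with earlier results of these data known. The naming rule took all members, SPTLC2, ZDHHC15 and the other paralogs, and from each list the called genes and the most abundant one. SETDB1, POLK, SGMS1-AS1 and GDF1 were named after their values were seen, because they overlap genes described; not every overlapping gene is reported here.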

Additional observations from a re-analysis of the deposited data

How the results depend on the processing

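The 12 other settings changed normalization, filter, test, block, GC correction or 1 library at a time. Each refits the same libraries, or all but 1 of them, so a sign that holds in all 12 is not independent support. Where the groups did not overlap, leaving out a library could hardly turn the sign. Of the 10 genes, 1 was called higher (CERS5) and 0 lower with library totals in place of TMM, where 19.3% of all tested genes were called. The same held with no filter on low counts (11.0%), limma-voom (19.4%) and the GC-content offset (19.1%). It also held with the replicate block (21.6%) and with the block and GC offset together (20.8%). DESeq2 size factors (19.4%) and DESeq2 (14.9%) called 0 of the 10. Leaving out a library, 0 to 2 were called (0 to 2 higher, 0 to 1 lower), and the neighbouring lists had 0 to 11 calls (0 to 8 higher, 0 to 3 lower), against 7 with all libraries (6 higher, 1 lower). The remaining library of a group was then assumed to vary like the other group.

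The deviations of libraries with equal replicate numbers correlated at -0.0133 over all tested genes, so no large effect shared by equal numbers was seen. With 2 libraries in each group this is a single value, and it cannot show whether equal numbers were handled together. With the replicate block, CERS5 had 0.42 (adjusted p = 0.0167), and with block and GC offset 0.48 (adjusted p = 0.00438), while UGCG was not called (adjusted p = 0.0558 with the block). Over all genes the block gave 3307 calls against 2971. With library totals the median of all tested genes moved to 0.06, against 0.00 (0.0049) with TMM.

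Calls over all genes fell to 640 without shSPTLC2 replicate 1 and 994 without replicate 2, and DESeq2 made 1978. In the CERS2 share, the synthase ratio and the synthase sum, both shSPTLC2 values lay below both shCON values. Leaving out 1 library therefore could not turn the direction of any of them. Without 1 library the CERS2 difference ran from -4.39 to -1.91 percentage points and the log2 ratio from -0.26 to -0.24. The difference in the sum ran from -2.36 to -0.31 FPKM. The other scalings tried kept the direction too, but CPM per kilobase cannot change a share or a ratio within a library. Dropping the length scaling cannot change the difference in log2 ratio. CERS4 had the fewest counts, and the other 9 genes had at least 349 in every library.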

Other observations

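UGT8, which makes galactosylceramide, lay just outside the threshold among the enzymes that consume ceramide, and it was picked after its values were seen. It averaged 26.9 ± 0.0609 CPM in shSPTLC2 and 20.6 ± 1.36 CPM in shCON (SD, n = 2 each), a log2 fold change of 0.39 ± 0.13 (SE, edgeR adjusted p = 0.0561). Both shSPTLC2 libraries lay above both shCON libraries for UGT8.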
